A study of Mus musculus with 4 samples.

Results

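The genes described here are the 6 receptor chains through which T cells sense interleukin-6 and the interleukin-12 type cytokines: Il6ra, Il6st, Il27ra, Il12rb1, Il12rb2 and Il23r. They were taken by symbol, as 6 of the 28032 features with an exon length in the deposited tables, and were chosen by their exon reads by genotype within each tissue. Genotype differences of these genes are therefore given as a description, with no test. The libraries hold mRNA of CD4+Foxp3+ regulatory T cells (Tregs), the T cells that restrain other immune cells, sorted from C57BL/6 mice aged 8 weeks. The animals were either wild type (WT) or Csnk2b-/-, called Csnk2b-deficient, Csnk2b being the gene of the beta subunit of the kinase CK2. Each genotype had 1 library from the spleen (replicate 1) and 1 from the tracheal lymph nodes (replicate 2), 4 libraries in all. How the gene was deleted, in which cells, and whether animals were pooled was not stated by the labels. With 1 library per genotype and tissue there were no replicates within a tissue, so the intervals on read ratios cover counting error only, and reads without molecular identifiers are not independent molecules.

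Cytokines of this family signal through complexes of chains that share a fold, in which the signalling chains recruit Janus kinases. Il6ra encodes the chain that binds interleukin-6, and Il6st encodes gp130, the signalling chain it shares with the receptors of interleukin-27 and of leukaemia inhibitory factor. Il27ra pairs with gp130 for interleukin-27, Il12rb2 pairs with Il12rb1 for interleukin-12, and Il23r pairs with Il12rb1 for interleukin-23. In T cells, interleukin-6 signals mainly through STAT3 and opposes Foxp3 induction, interleukin-12 signals through STAT4 and favours the Th1 fate, and interleukin-23 sustains Th17 cells. Il6ra and gp130 are high on naive T cells, and Il12rb2 and Il23r appear mainly on differentiated helper cells.

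Libraries held 4737814 to 6750695 exon reads. Csnk2b, the targeted gene, had 649 exon reads in WT and 148 in Csnk2b-deficient splenic Tregs, and 667 and 283 in lymph node Tregs. Levels are given as CPM, that is exon reads over the library's TMM-scaled total in units of 1e6 reads. On this scale the Csnk2b-deficient level of Csnk2b was 0.311 times WT in splenic Tregs and 0.381 times in lymph node Tregs. Exon reads of Csnk2b thus remained in the cells called Csnk2b-deficient. Of 7 Treg markers, 7 were detected in each library, with summed levels of 3661 to 6854 CPM, and 6 of 6 general T cell markers summed to 2802 to 9903 CPM. Foxp3, which defines the sorted cells, was itself lower in Csnk2b-deficient Tregs, with 811 CPM in WT and 374 CPM in Csnk2b-deficient splenic Tregs (log2 ratio -1.12), and 570 and 123 CPM in lymph node Tregs (-2.21). Of the 6 other Treg markers 1, Folr4, was lower in both tissues, with log2 ratios of -0.20 and -0.077. Of 9 markers of monocytes, macrophages and dendritic cells, between 3 and 8 were detected, with summed levels of 14.1 and 11.1 CPM in WT and Csnk2b-deficient splenic Tregs, and 49.9 and 335 CPM in lymph node Tregs. The Csnk2b-deficient lymph node library thus stood apart in these genes, with 1291 reads of the lysozyme gene Lyz2 compared with 187 in WT. Of 6 B cell markers 3 to 5 were detected (28.2 to 168 CPM summed) with Pax5 at 0 throughout, and of 5 neutrophil markers 4 were at 0 in all libraries. The NK cell list of 4 genes summed to 3.63 to 11.2 CPM with Ncr1 at 0, and the CD8 T cell genes, 2 in number, to 12.5 to 52.5 CPM. Genes with at least 1 exon read numbered 12157 in WT lymph node Tregs and 14335 to 15515 elsewhere. Their part in the values of the receptor chains was not tested. In these bulk libraries fewer cells with a transcript and less of it per cell cannot be told apart.

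Both chains of the interleukin-6 receptor were lower in Csnk2b-deficient Tregs of each tissue, as was Foxp3, whose part in these values was not tested. Because they were low together, the 250 bases upstream of their RefSeq starts (build GRCm38.p6, in the direction of transcription) are shown, with matches to the searched motifs in capitals. The window of Il6ra is chr3:89913197-89913446 on the minus strand, and that of Il6st chr13:112463820-112464069 on the plus strand.
Il6ra: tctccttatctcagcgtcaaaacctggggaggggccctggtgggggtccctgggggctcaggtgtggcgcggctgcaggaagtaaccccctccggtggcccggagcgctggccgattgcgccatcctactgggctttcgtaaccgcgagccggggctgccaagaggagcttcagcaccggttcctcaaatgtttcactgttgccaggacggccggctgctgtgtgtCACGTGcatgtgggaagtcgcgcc
Il6st: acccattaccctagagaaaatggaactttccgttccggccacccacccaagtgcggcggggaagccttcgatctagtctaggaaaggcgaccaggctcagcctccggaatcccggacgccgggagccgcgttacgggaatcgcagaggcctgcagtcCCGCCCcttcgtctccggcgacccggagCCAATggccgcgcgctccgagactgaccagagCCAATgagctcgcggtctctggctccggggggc
The motifs searched on both strands were a STAT site (TTCNNNGAA), a forkhead site (GTAAACA), the CCAAT box, the GC box (GGGCGG) and an E-box (CACGTG), the last added after the Il6ra sequence had been read. The capitals in Il6ra mark 1 E-box, and those in Il6st mark 1 GC box, read on the opposite strand, and 2 CCAAT boxes. The searched motifs had no match in common between both windows. Among 32851 upstream windows of the same length, 6.02% held the E-box, 33.8% a CCAAT box, 32.7% a GC box, 7.02% the STAT site and 3.17% the forkhead site. Both windows were rich in G and C, 65.2% in Il6ra and 66.0% in Il6st, beside a median of 52.4% over all windows. Of the 6 chains 4 had an entry in the promoter table. The windows of Il12rb2 and Il23r held 50.0% and 39.6% G and C, and Il12rb2 had 1 match to the STAT site, and Il23r matched none of the motifs.

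Il6ra (chromosome 3, 89673246 to 89717084, mm9, 10 exons) had 1420 exon reads in WT and 504 in Csnk2b-deficient splenic Tregs, or 180 and 87.2 CPM. In lymph node Tregs it had 366 and 114 reads, or 89.5 and 25.0 CPM. The WT library was the higher in each tissue, while WT of the lymph node lay at about the level of Csnk2b-deficient splenic Tregs. The WT level was 2.07 times the Csnk2b-deficient level in splenic Tregs (95% exact binomial interval 1.86 to 2.29) and 3.58 times in lymph node Tregs (2.89 to 4.46). Fitted over both tissues, the log2 fold change was -1.42 ± 0.28 (SE, n = 2 libraries per genotype), and the log2 ratio was -1.04 in splenic Tregs and -1.82 in lymph node Tregs. The SE rests mostly on the spread shared across genes (median prior degrees of freedom 10.06). Only 1 residual degree of freedom came from how far the tissues differed in the gene itself. In fits of 3 libraries, which hold no tissue term, the fold change stayed negative and ranged from -2.45 without Csnk2b-deficient replicate 1 to -0.60 without Csnk2b-deficient replicate 2.

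Il6st (chromosome 13, 113265216 to 113297068, mm9, 15 exons) had 2181 and 800 exon reads in WT and Csnk2b-deficient splenic Tregs, or 277 and 138 CPM. In lymph node Tregs it had 1071 and 493 reads, or 262 and 108 CPM. The 2 WT libraries were close to each other and lay above both Csnk2b-deficient libraries. The WT level was 2.00 times the Csnk2b-deficient level in splenic Tregs (1.84 to 2.17) and 2.42 times in lymph node Tregs (2.17 to 2.70), with a fitted log2 fold change of -1.14 ± 0.21 (SE, n = 2 per genotype). All exon reads of the 6 chains were uniquely placed.

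Il27ra (chromosome 8, 86554186 to 86566488, mm9, 17 exons), the partner of gp130 for interleukin-27, was the most abundant of the chains and differed little by genotype. It had 2763 and 1902 exon reads in WT and Csnk2b-deficient splenic Tregs, or 350 and 329 CPM, and 2151 and 2821 reads, or 526 and 618 CPM, in lymph node Tregs. The Csnk2b-deficient level was 0.939 times WT in splenic Tregs (0.885 to 0.996) and 1.18 times in lymph node Tregs (1.11 to 1.24), so the directions were opposite, and the fitted log2 fold change was 0.07 ± 0.19. The listed span of Palm3, which overlaps Il27ra, had 445, 311, 18 and 27 exon reads in the order WT spleen, Csnk2b-deficient spleen, WT lymph node and Csnk2b-deficient lymph node. How reads of the overlap were assigned, and whether strand was used, was not stated by the labels.

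Il12rb1 (chromosome 8, 73332348 to 73345323, mm9, 18 exons), the chain common to the receptors of interleukin-12 and interleukin-23, was lower in both lymph node libraries than in either spleen library. It had 438 and 355 exon reads in WT and Csnk2b-deficient splenic Tregs, or 55.6 and 61.4 CPM, and 70 and 47 reads, or 17.1 and 10.3 CPM, in lymph node Tregs. In the spleen the Csnk2b-deficient level was 1.11 times WT, with an interval of 0.958 to 1.27 that includes equality. In lymph node Tregs it was 0.602 times WT (0.407 to 0.884).

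Il12rb2 and Il23r, the chains that give the receptors of interleukin-12 and interleukin-23 their specificity, were near the lower limit of detection. Il12rb2 (chromosome 6, 67241312 to 67326182, mm9) had 18 and 6 exon reads in WT and Csnk2b-deficient splenic Tregs, or 2.28 and 1.04 CPM, and 29 and 14 reads, or 7.09 and 3.07 CPM, in lymph node Tregs. Its Csnk2b-deficient level was 0.455 times WT in splenic Tregs, with an interval of 0.148 to 1.20 that includes equality, and 0.433 times in lymph node Tregs (0.211 to 0.846). Il23r (chromosome 6, 67372926 to 67441849, mm9) had 3 and 2 exon reads in splenic Tregs and 0 and 4 in lymph node Tregs. A count of 0 in WT lymph node Tregs allows up to 3 reads, or 0.733 CPM, so no genotype difference of Il23r was detectable at this depth.

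**Figure D1:**
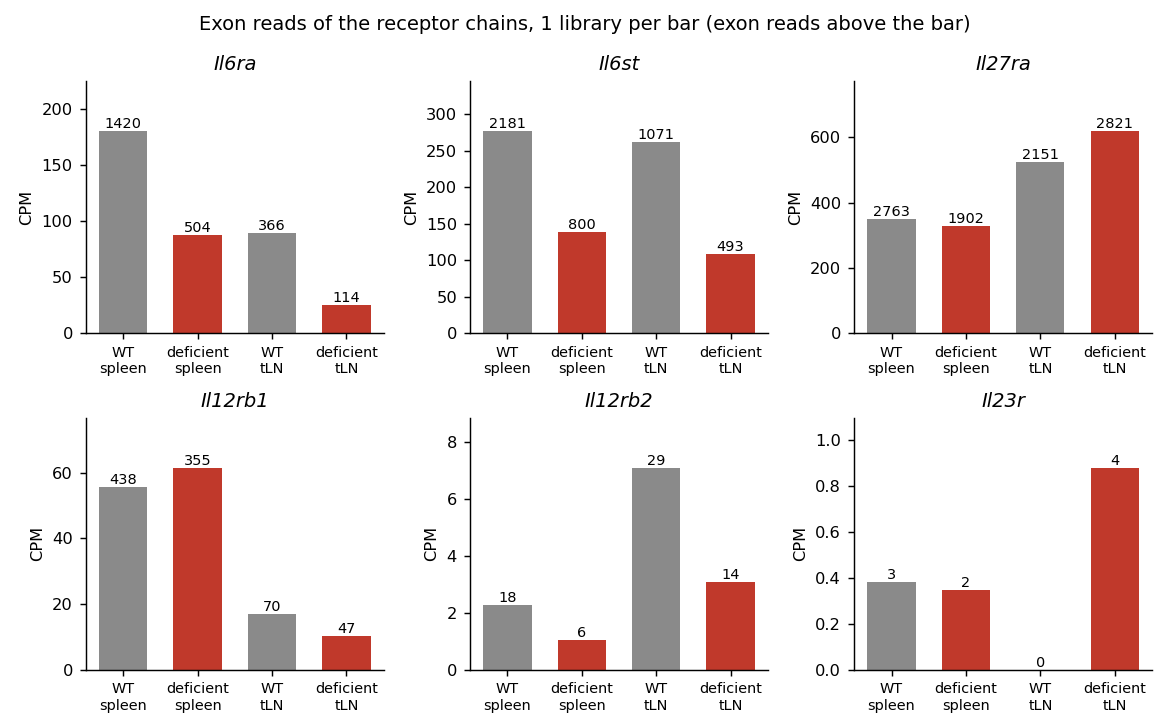
Bars show CPM (vertical axis, from 0, on its own scale for each gene) in 1 library each, WT in grey and Csnk2b-deficient in red, for spleen and tracheal lymph node (tLN), with the exon reads above each bar. Il6ra and Il6st are lower in the Csnk2b-deficient library of each tissue, Il27ra differs little, and Il23r has at most 4 reads.

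Of the 6 chains 5 passed the filter on low counts, all but Il23r. Of the 5, 3 (Il6ra, Il6st and Il12rb2) were lower in Csnk2b-deficient Tregs of both tissues and 0 were higher in both, beside 29.2% of 11113 tested genes lower and 27.5% higher in both. A difference of at least 2-fold in both tissues was seen for 1, Il6ra, beside 0.738% of tested genes, with Il6st just short of it in splenic Tregs at a log2 ratio of -0.997. These values come from the contrast by which the genes were chosen, so no inference rests on them. The median log2 fold change of the 5 was -1.14, beside 0.0087 over all tested genes.

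**Figure D2:**
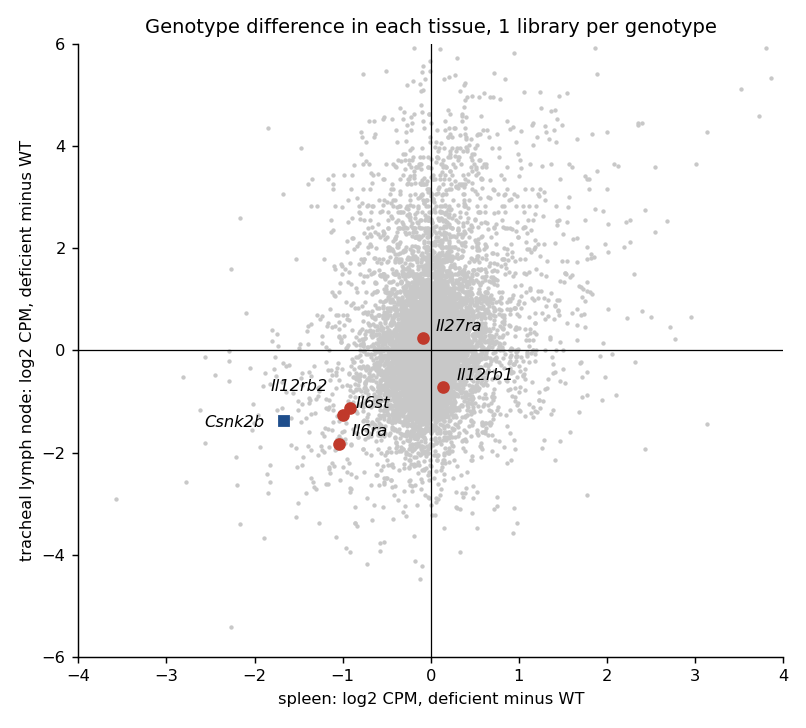
Each point is 1 gene, with the log2 CPM of Csnk2b-deficient minus WT libraries of the spleen (horizontal) and of the tracheal lymph node (vertical). Grey points are the 11113 tested genes (4 lie outside the axes), red points the 5 tested receptor chains and the blue square Csnk2b, and Il6ra, Il6st and Il12rb2 lie at the lower left, as does Csnk2b, while Il27ra lies near the origin.

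Levels of different genes were compared per kilobase of exon. Such levels take reads to lie evenly over the listed exons of each gene, which was not tested. In every library Il27ra was the highest chain, at 131 and 123 CPM per kilobase in WT and Csnk2b-deficient splenic Tregs and 197 and 232 in lymph node Tregs, and Il12rb2 was the lowest of the 5 tested, at 0.602, 0.274, 1.87 and 0.809. Between them the order was Il6st or Il6ra, then Il12rb1. In the spleen the 2 interleukin-6 receptor chains had levels per length within counting error of each other: the ratio of Il6ra to Il6st was 1.01 in WT (0.948 to 1.08) and 0.981 in Csnk2b-deficient Tregs (0.876 to 1.10). In lymph node Tregs Il6ra was below Il6st, with ratios of 0.532 in WT (0.471 to 0.600) and 0.360 in Csnk2b-deficient Tregs (0.291 to 0.442). The intervals cover counting error only. Exon reads of both genes crossed a junction less often in lymph node than in splenic Tregs, as given below, so their coverage differed between tissues. The part of coverage in the lower ratios of lymph node Tregs was not tested, and the ratios are not read as proportions of receptor chains. The ratio of Il27ra to Il6st was 2.47 in WT and 4.63 in Csnk2b-deficient splenic Tregs, and 3.92 and 11.2 in lymph node Tregs. Its rise in each Csnk2b-deficient library restates that Il6st was lower there while Il27ra differed little. This ratio, too, is not read as a proportion of receptor chains. Il6ra exceeded Il12rb1 2.79 times in WT splenic Tregs and 1.22 times in Csnk2b-deficient ones (1.06 to 1.40). Il12rb1 exceeded Il12rb2 in each library, 32.1 and 78.1 times in splenic Tregs and 3.19 and 4.43 times in lymph node Tregs.

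**Figure D3:**
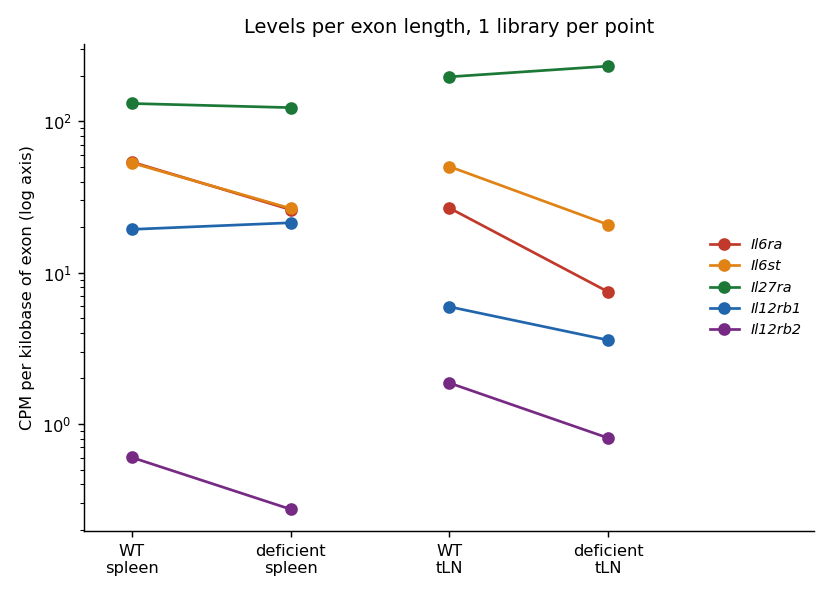
Points are CPM per kilobase of exon (log axis) of the 5 tested chains in the 4 libraries, and lines join WT and Csnk2b-deficient libraries of 1 tissue. Il6ra and Il6st overlie each other in splenic Tregs and separate in lymph node Tregs, and Il27ra is the highest chain in each library.

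The tables also count reads within introns and reads across exon junctions, which come from the same libraries and the same contrast as the exon reads that chose the genes. They are given as a description, with exon reads scaled by TMM as above and intron and junction reads scaled to the library's total of their own kind. In the spleen the Il6ra intron reads, 419 in WT and 189 in Csnk2b-deficient Tregs, had a ratio of 0.587 (0.492 to 0.699), and the junction reads, 183 and 60, a ratio of 0.455 (0.334 to 0.612), beside 0.484 for exon reads. The 3 kinds of read were thus lower together in splenic Tregs, and the same held for Il6st, at 0.545 for intron reads (284 and 119), 0.391 for junction reads (284 and 80) and 0.500 for exon reads. In lymph node Tregs they separated. Il6ra intron reads there, 404 and 301, had a ratio of 0.676 (0.580 to 0.786), above the exon ratio of 0.279 (0.224 to 0.346), and its junction reads numbered 14 and 1. Il6st intron reads in lymph node Tregs, 44 and 68, had a ratio of 1.40 (0.945 to 2.10), while its junction reads, 38 and 20, had 0.445 (0.245 to 0.784), near the exon ratio of 0.413. For Il27ra, intron ratios were 0.920 in splenic Tregs and 0.830 (0.686 to 1.00) in lymph node Tregs, and junction ratios 1.07 and 1.03. Its exon ratios were 0.939 and 1.18 (1.11 to 1.24). In lymph node Tregs its intron ratio thus lay below its exon ratio, the opposite of Il6ra and Il6st. Il12rb1 in lymph node Tregs had 0 intron reads in WT and 17 in Csnk2b-deficient Tregs, and 15 and 1 junction reads.

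**Figure D4:**
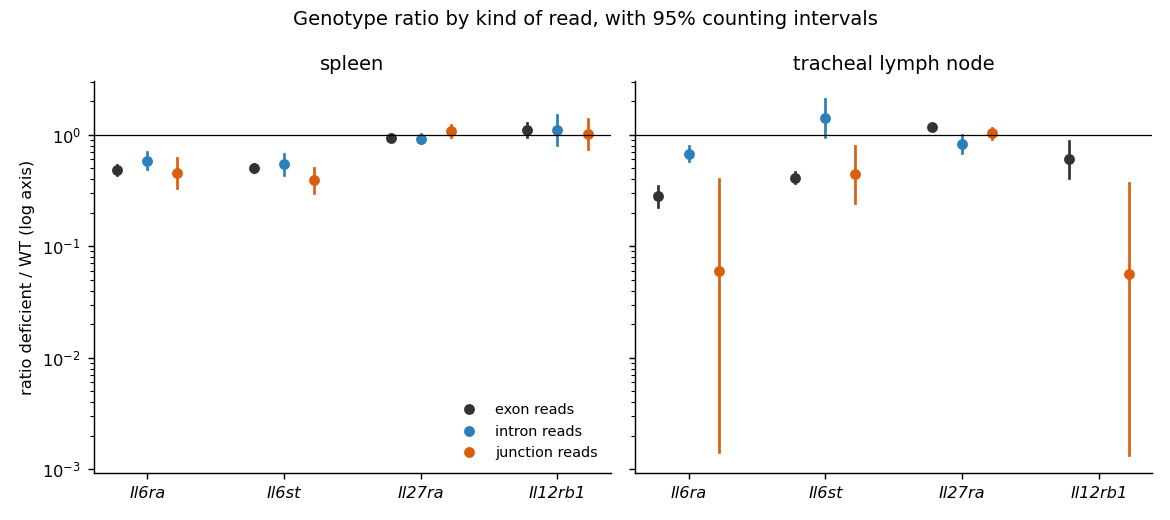
Points are the ratio of Csnk2b-deficient to WT reads (log axis), each scaled to its library, for exon, intron and junction reads of 4 chains, and vertical lines are 95% exact binomial intervals. In the spleen the kinds of read of a gene lie together. In lymph node Tregs the intron ratios of Il6ra and Il6st lie above their exon ratios, and that of Il27ra lies below. The intron ratio of Il12rb1 in lymph node Tregs is not drawn, since WT had 0 such reads.

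Intron reads made up a larger share of the reads of Il6ra in lymph node Tregs than in splenic Tregs. Of the reads within the Il6ra gene, 22.8% in WT and 27.3% in Csnk2b-deficient splenic Tregs were intronic, compared with 52.5% (48.9 to 56.0) and 72.5% (68.0 to 76.8) in lymph node Tregs. Over all genes the libraries held between 21.1% and 23.8% intron reads, so the lymph node values of Il6ra were above the library share and those of Il27ra, 9.85% and 7.08%, below it. Il12rb2, with few reads, was above the library share in each library, at 61.7% (46.4 to 75.5) and 68.4% (43.4 to 87.4) in splenic Tregs and 40.8% (27.0 to 55.8) and 54.8% (36.0 to 72.7) in lymph node Tregs. Junction reads made up 12.9% and 11.9% of Il6ra exon reads in splenic Tregs, but 3.83% (2.11 to 6.33) and 0.877% (0.0222 to 4.79) in lymph node Tregs. Il6st was alike in junction share, with at most 13.0% in splenic Tregs and 3.55% and 4.06% in lymph node Tregs. Its intron share was 11.5% and 12.9% in splenic Tregs and 3.95% and 12.1% in lymph node Tregs. In each library this was below the library share, unlike that of Il6ra in lymph node Tregs. Over all genes 18.5% to 19.6% of exon reads crossed a junction, and Il27ra had 21.4% to 24.5%. Exon reads of Il6ra and Il6st in lymph node Tregs therefore came with few junctions in both genotypes. The labels' protocols name different RNA and library kits for samples 1 and 2 and for samples 3 and 4. If the samples are numbered in the order of listing, kit and tissue cannot be told apart.

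**Figure D5:**
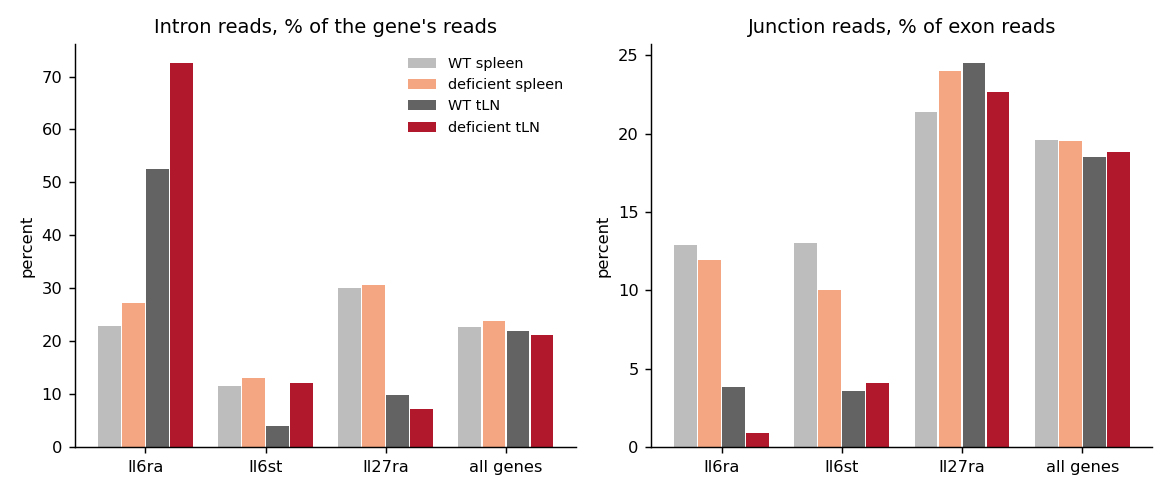
Bars show intron reads as a percent of the reads of a gene (left) and junction reads as a percent of its exon reads (right), for 3 chains and over all genes, in the 4 libraries. In the libraries of lymph node Tregs (tLN) Il6ra has intron shares of 52.5% and 72.5%, and Il6ra and Il6st have junction shares below 5%, while the shares over all genes are near equal between libraries.

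The comparison of the lymph node with the spleen did not enter the choice of genes and was tested, with edgeR and genotype as a term. Each tissue had 1 library per genotype, with no replicates. The SE therefore rests mostly on the spread shared across genes (median prior degrees of freedom 10.06). Only 1 residual degree of freedom came from how far the gene's tissue difference varied between genotypes. Il12rb1 was lower in lymph node Tregs, with a log2 fold change of -2.13 ± 0.39 (SE, n = 2 libraries per tissue, edgeR adjusted p = 0.00112). Il6ra was lower, at -1.39 ± 0.28 (adjusted p = 0.00188), and Il27ra was higher, at 0.75 ± 0.19 (adjusted p = 0.00720). Il6st, at -0.22 ± 0.21 (adjusted p = 0.428), and Il12rb2, at 1.59 ± 1.21 (adjusted p = 0.308), did not pass the threshold in edgeR. Of 5 tested chains 1 rose and 2 fell, beside 23.3% and 22.2% of tested genes, 45.4% in all, and 3 had an unadjusted p below 0.05, beside 52.7%. Calls were common in this contrast, with DESeq2 calling 41.4% of genes (21.7% higher, 19.7% lower) and limma-voom 50.5% (26.8% higher, 23.8% lower). The median over all tested genes was -0.17.

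Each called direction was seen within both genotypes on exon reads. The log2 difference of lymph node minus spleen for Il12rb1 was -1.68 in WT and -2.53 in Csnk2b-deficient Tregs, for Il6ra -1.01 and -1.79, and for Il27ra 0.58 and 0.91. Intron reads, scaled to their library total, went the other way for Il6ra and Il27ra. Of 1979935 and 1335738 intron reads in WT spleen and lymph node, 419 and 404 were of Il6ra and 1182 and 235 of Il27ra. Of 1521681 and 1472793 in Csnk2b-deficient spleen and lymph node, 189 and 301 were of Il6ra and 836 and 215 of Il27ra. Il12rb1 intron reads fell with its exon reads (92 and 0 in WT, 78 and 17 in Csnk2b-deficient Tregs). This was not tested. The Il12rb1 call held in all 12 alternative fits (adjusted p from 6.69e-07 to 0.0368). The Il6ra call was lost without a genotype term (adjusted p = 0.203) and in fits of 3 libraries without WT replicate 1 (0.572), without Csnk2b-deficient replicate 1 (0.0845) and without Csnk2b-deficient replicate 2 (0.382), with a range of 1.32e-06 to 0.572 over its 12 alternatives. The Il27ra call was lost without WT replicate 1 (0.169) and without Csnk2b-deficient replicate 1 (0.231), with a range of 0.00105 to 0.231. Those fits of 3 libraries hold no genotype term. Palm3, whose listed span overlaps Il27ra, had 445 and 311 exon reads in WT and Csnk2b-deficient spleen, and 18 and 27 in lymph node. Its part in the tissue difference of Il27ra was not tested. Tissue and library kit cannot be told apart if samples were numbered as listed.

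Genes upstream and downstream of the receptors were read from lists of ligands, other receptor chains, kinases, transcription factors, brakes and induced genes. Of 71 genes listed, 49 were tested for the genotype difference, and 2 rose and 0 fell at an adjusted p of 0.05 in edgeR, beside 0.126% and 0.018% of all tested genes. Both belong to the list of genes that these cytokines can induce. Counting both directions, 0.144% of all tested genes passed. An unadjusted p below 0.05 was found for 8 of the 49, beside 4.88% of all tested genes, and DESeq2 and limma-voom called 4 each, beside 0.486% and 0.54%. The lists were drawn up with earlier results of these data known. The median log2 fold change over the 49 was 0.13, beside 0.0087 over all tested genes.

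Most ligand genes were at or near 0 reads in these cells. Of 14 ligand subunits 4 were tested and 0 were called, with 1 at an unadjusted p below 0.05, and Il6 itself had 0 reads in either spleen library and 1 in each lymph node library. Ebi3, a subunit of interleukin-27 and interleukin-35, had 139 and 236 reads in WT and Csnk2b-deficient splenic Tregs and 64 and 219 in lymph node Tregs, with 52.9% of its reads uniquely placed (log2 fold change 1.41 ± 0.38, edgeR adjusted p = 0.434). Clcf1, a ligand of the gp130 family, had -0.55 ± 0.27 (961, 503, 189 and 136 reads in the order WT spleen, Csnk2b-deficient spleen, WT lymph node, Csnk2b-deficient lymph node), and Lif had 0.47 ± 0.66. DESeq2 and limma-voom called 0 of these ligands. Among 7 further receptor chains of the family, Il11ra1 alone was tested (-0.09 ± 0.74), and Lifr and Osmr, which pair with gp130, had 0 or 1 reads per library.

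No gene of the machinery behind the receptors was called by genotype. Over all tested genes edgeR called 0.144%, DESeq2 0.486% and limma-voom 0.54%, and 4.88% had an unadjusted p below 0.05 in edgeR. At these shares lists of this size would hold few or no calls, so 0 called does not show the machinery to be unchanged. Of 11 Janus kinase and STAT genes 0 were called by edgeR, DESeq2 or limma-voom, with 0 at an unadjusted p below 0.05 in edgeR. Among those with the smallest p, Stat5b had -0.52 ± 0.24 and Stat4, the main transducer of interleukin-12, had 0.38 ± 0.21 (edgeR adjusted p = 0.890 for each). Of 12 genes that restrain the signal, 0 were called by any of the 3 tools, with 1 at an unadjusted p below 0.05 in edgeR. This was Cish, a SOCS family inhibitor, at 0.53 ± 0.19 with 28.6% of its reads uniquely placed. Socs3, which binds gp130 and blocks its signal, had 1289 and 1196 reads in WT and Csnk2b-deficient splenic Tregs and 96 and 179 in lymph node Tregs (0.52 ± 0.25, edgeR adjusted p = 0.890), and the phosphatase gene Ptpn6 had -0.34 ± 0.20. The proteases Adam10 and Adam17, which can shed the interleukin-6 receptor from the cell surface, had -0.08 ± 0.21 and 0.13 ± 0.23. They were in a list of 4 with 0 called by any of the 3 tools and 0 at an unadjusted p below 0.05, whose other members, the aminopeptidase gene Erap1 and Cd5, had 0.36 ± 0.22 and -0.36 ± 0.20.

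Of 17 tested genes that these cytokines can induce in T cells, 2 rose in edgeR and 0 fell. In both tissues 9 were higher and 3 lower, beside 27.5% and 29.2% of all tested genes. The 2 that rose in edgeR were Il18r1 (1.84 ± 0.22, adjusted p = 0.00656) and Il18rap (2.22 ± 0.29, adjusted p = 0.0124). They are the chains of the interleukin-18 receptor, which interleukin-12 induces. With median-of-ratios scaling, without the tissue term and in each fit of 3 libraries both calls were lost, and Il18rap was not called on uniquely placed reads. Cxcr3, a Th1 chemokine receptor (1.30 ± 0.31), and Ahr, the aryl hydrocarbon receptor (1.90 ± 0.33), were called by DESeq2 and limma-voom. Neither was called by edgeR in the main fit (adjusted p = 0.293 and 0.0747), while both were called by edgeR with no filter on low counts. DESeq2 and limma-voom called 4 genes of this list each, all higher, beside 0.342% and 0.351% of tested genes. The list was drawn up with earlier results of these data known, so no inference rests on these counts. Ccr6, a Th17 chemokine receptor, had -0.83 ± 0.28 (edgeR adjusted p = 0.794), with 182 and 106 reads in splenic Tregs and 1167 and 543 in lymph node Tregs. The median log2 ratio of the list was 0.028 for the splenic libraries and 0.66 for those of the lymph node. The latter pair holds the libraries with 12157 genes detected and with 335 CPM of myeloid markers.

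Markers of naive and central T cells, among which Il6ra and Il6st are usually high, were split. Of 10 such genes 6 were lower and 2 higher in both tissues, beside 29.2% and 27.5% of all tested genes. The transcription factor gene Bach2 had 682 and 209 reads in splenic Tregs and 433 and 131 in lymph node Tregs. Il7r, the interleukin-7 receptor, went the other way, with 1913 and 2287 reads in the spleen libraries and 813 and 2394 in those of the lymph node. Summed levels of the list were 2112 and 1807 CPM in splenic Tregs and 4227 and 3698 CPM in lymph node Tregs, WT first. The part of these genes' source cells in the values of Il6ra and Il6st was not tested.

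Genes with the profile most like each chain were found by the Euclidean distance between log2 CPM values, centred on their mean over the 4 libraries, among 8633 genes with at least 10 CPM on average. Nearest to Il6st was Myb, a transcription factor of haematopoietic progenitors, at a distance of 0.19, with 64.8 and 36.0 CPM in splenic Tregs and 57.4 and 24.3 CPM in lymph node Tregs. It was followed by Mtap7 at 0.30. Nearest to Il6ra were Dbp, a clock-controlled transcription factor (0.40), Smox, the spermine oxidase (0.43), and Slc25a23, a mitochondrial carrier (0.43). Il27ra had closer neighbours, the ribosomal protein gene Rpl36a at 0.021, Hbs1l at 0.035 and Tmem106a at 0.041. Il12rb1 lay nearest to Brap, Stk40 and Rad23b, at 0.091 to 0.096, and Il12rb2 to Reck, Cdk5rap1 and Lgmn, at 0.24 to 0.30.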

How the data were processed

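Tregs of 2 tissues and 2 genotypes were sequenced. The deposited tables, 1 per library, list raw counts of exon, gene and exon-junction reads per gene, per the file headers. Per the submitters' processing notes, CASAVA 1.8.2 and build mm9 were used; aligner and annotation were not stated. Of 37583 features, 9551 without exon length (0 exon reads) were left out. For total exon reads, R 4.3.3 and edgeR 4.0.16 were used, with genotype-wise filterByExpr, TMM scaling and the robust quasi-likelihood test on tissue plus genotype, Benjamini-Hochberg adjusted over 11113 genes at a threshold of 0.05, leaving 1 residual degree of freedom. Libraries with the same number share a tissue, per the labels, and their deviations from the genotype means correlated at 0.783. Tissue log2 differences within a genotype, and genotype log2 ratios within a tissue, use a prior count of 2. Intron reads are gene reads less exon reads. DESeq2 1.42.0 and limma-voom (limma 3.58.1), other scalings, filters, uniquely placed reads and left-out libraries were alternatives. The fit was tested on simulated data. The rule for named genes took the 6 chains, Csnk2b, called genes of each list plus up to 3 of the smallest unadjusted p with at least 5 CPM, and 3 nearest profiles per chain; Foxp3, Folr4, Lyz2, Bach2, Il7r, Palm3, Il6, Lifr, Osmr and Adam10 were named after their values were seen. Some genes that the rule takes are not reported here. The chains, gene lists and tests were chosen with earlier results of these data known.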

Additional observations from a re-analysis of the deposited data

Results flagged for a closer look

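Il27ra had a log2 ratio of Csnk2b-deficient to WT Tregs of -0.091 in splenic and 0.23 in lymph node Tregs, opposite directions in the tissues, and both are small. Il12rb1 had 0.14 in splenic and -0.71 in lymph node Tregs, where it rested on 70 and 47 exon reads. With 1 library per genotype and tissue these differences between tissues were not tested.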

How the results depend on the processing

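Median-of-ratios scaling called 4 genes by genotype (4 higher, 0 lower) compared with 16 (14 higher, 2 lower), uniquely placed reads 7, DESeq2 54, limma-voom 60 and no filter 111. With no replicate block, that is without the tissue term, 0 genes passed in edgeR and 29 had an unadjusted p below 0.05, and fits of 3 libraries called 0 to 1. Among the listed pathway genes, compared with 2, the calls were 0 with median-of-ratios scaling, 4 with no filter, with DESeq2 and with limma-voom, 1 on uniquely placed reads, 0 with no replicate block and 0 in each fit of 3 libraries. The tissue contrast called 2186 to 7874 genes in fits of 3 libraries, compared with 5050. The causes were not tested.

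Under other scalings, filters and tools, genotype log2 fold changes of the tested chains moved by less than their spread between tissues; limma-voom gave -0.016 for Il12rb1, compared with -0.25. With no replicate block Il6ra had -1.26, Il6st -1.13, Il27ra 0.11, Il12rb1 -0.020 and Il12rb2 -1.18. On intron reads they were -0.66 for Il6ra, -0.20 for Il6st, -0.19 for Il27ra and -0.52 for Il12rb2, and Il12rb1 gave no value because WT lymph node Tregs had 0 intron reads. In fits with 1 library left out they ranged from -2.45 to -0.60 for Il6ra, -1.33 to -0.92 for Il6st, -0.37 to 0.49 for Il27ra, -1.84 to 1.10 for Il12rb1 and -2.10 to -0.13 for Il12rb2 (-0.92 in the spleen pair alone). Fits of 3 libraries hold only the term compared and weigh the tissues unequally. The tissue difference of Il6st, not called, reversed to 0.39 without WT replicate 1 and 0.29 without Csnk2b-deficient replicate 2. That of Il6ra, -1.23 without the genotype term, lost its call there, and over fits of 3 libraries it ranged from -2.40 to -0.62. Il27ra ranged from 0.59 to 0.89, and Il12rb2 from 0.87 to 2.23, called without Csnk2b-deficient replicate 2 (2.00). Upper-quartile scaling moved the median tissue difference of all genes by -0.15 and no filter by -0.25. At 5 CPM Il12rb2 gave no value. Depth limits Il12rb2 and Il23r, which had at most 29 and 4 exon reads per library.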
